A study of Homo sapiens with 6 samples.

Results

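The 10 genes described here encode enzymes of serine synthesis, folate one-carbon metabolism and asparagine synthesis, namely PHGDH, PSAT1, PSPH, SHMT1, SHMT2, MTHFD1, MTHFD1L, MTHFD2, ALDH1L2 and ASNS. They were chosen by symbol, and all 10 were among the 19792 genes that the deposited table lists. RNA-seq was performed on BT-549 cells, a human triple-negative breast cancer line, with a stably introduced tet-inducible shRNA against WDR5. The 3 control cultures were treated with vehicle (0.1% DMSO) and the 3 others with 500 ng/ml doxycycline (DOX), which switches the shRNA on, and the study's supplement gives 7 days of treatment. Both groups carry the inducible WDR5 shRNA after puromycin selection, and a line with a control shRNA is not analysed here. The study silenced WDR5 to find genes regulated by MUC1-C that the SET1A complex also controls. WDR5 is a subunit of the COMPASS complexes that methylate histone H3 at lysine 4.

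The value used for each gene is the deposited mean normalized count over all 6 libraries, vehicle and DOX together. It has no replicate error and no direction of change, so the response of these enzymes to DOX was not analysed here, and levels are given as a description with no test. The mean of WDR5 itself, 1143, is also over silenced and control cultures and so does not check the silencing. The 3 libraries of a group are not seen singly, and levels that differ by little more than counting error may not differ beyond the spread between cultures.

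Serine is made from a glycolytic intermediate in 3 steps, by PHGDH, PSAT1 and PSPH in that order. Serine hydroxymethyltransferase then turns serine into glycine and passes its carbon to tetrahydrofolate, in the cytosol through SHMT1 and in mitochondria through SHMT2. The folate-bound carbon is oxidized and reduced by the MTHFD enzymes, leaves mitochondria as formate, and is used for purines, thymidylate and methionine. ALDH1L2 oxidizes it to carbon dioxide in mitochondria. ASNS makes asparagine from aspartate and glutamine, and is a well-known target of the stress-induced transcription factor ATF4, as are several serine synthesis genes.

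The cells had the markers of a mesenchymal line and little hormone receptor RNA. The mean normalized count was 47782 for VIM, 48038 for CD44, 19657 for SPARC and 7333 for ZEB1, and these 4 of 4 genes were above the median gene per length. The hormone receptor genes ESR1 and PGR stood at 0.79 and 0.801, EPCAM at 1.3, CDH1 at 59.6 and KRT8 at 57.3, whereas ERBB2 at 1221 and KRT18 at 435 were above the median gene per length. Of the markers of other cells, LYZ stood at 0.316, PECAM1 at 2.86, VWF at 0.621 and PTPRC at 44.7, and CD68, a lysosomal protein gene that is not restricted to macrophages, at 1813.

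Since a long transcript gives more reads than a short one, levels of different genes were compared per kb, as the mean normalized count divided by the length of the gene's longest GENCODE transcript. Of the 19792 genes, 13024 had a mean normalized count of at least 10 and a length, and these were ranked. The median ranked gene was at 181 per kb, with quartiles of 51 and 505. The median of the 10 enzymes was 799 per kb, and 9 of 10 were above the median ranked gene. ASNS was the exception, and almost all of its canonical exon bases are shared with another gene, as described below. Together the 10 genes held 0.149% of the sum of all mean normalized counts, and PSAT1 alone gave 29.7% of their share.

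**Figure D1:**
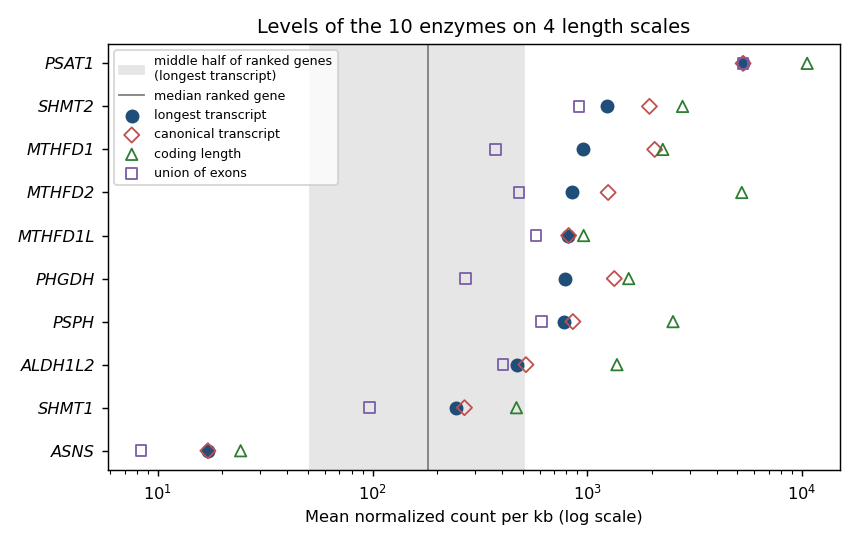
Mean normalized count per kb of the 10 enzymes (log scale), divided by the longest transcript (filled circles), the canonical transcript (diamonds), the coding length (triangles) or the union of exons (squares); the grey band and line are the quartiles and the median of 13024 ranked genes by longest transcript, and there are no error bars since each value is 1 mean over 6 libraries. PSAT1 is highest at 5319 per kb and ASNS lowest at 17.1 per kb by longest transcript, and both keep these places on the other length scales. Almost all canonical exon bases of ASNS are shared with another gene.

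The serine synthesis genes were all in the upper part of the ranking, and the middle enzyme stood above the other two. PHGDH (chr1:119648411-119744218, GRCh38, plus strand), which oxidizes 3-phosphoglycerate and opens the pathway, had a mean normalized count of 2494. Its level was 784 per kb, at or above 84% of ranked genes. PSAT1 (chr9:78297125-78330093, plus strand), the aminotransferase that takes its nitrogen from glutamate, had a mean normalized count of 11734 and a level of 5319 per kb. That level was at or above 98.5% of ranked genes. ATF4 stood at 5848 per kb by the same measure, and at 8321 against 5319 for PSAT1 by canonical transcript. By coding length ATF4 stood at 11213 against 10571 for PSAT1, and by union of exons at 4519 against 5319. PSPH (chr7:56011051-56051604, minus strand), the phosphatase of the last step, had a mean normalized count of 1693 and a level of 777 per kb.

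The level of PSAT1 per kb was 6.78 times that of PHGDH and 6.84 times that of PSPH. With the canonical transcript, the coding length or the union of exons in place of the longest transcript, the ratio to PHGDH ran from 3.98 to 19.6 and the ratio to PSPH from 4.22 to 8.68, so that PSAT1 stayed higher on each scale. PHGDH and PSPH were close by longest transcript, with a ratio of 1.01, a difference within their counting errors of at most 0.953% and 1.16%. Their order depended on the length used, since PHGDH was the higher by canonical transcript (1.56 times) and the lower by coding length (0.622 times) and by union of exons (0.443 times).

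The mitochondrial serine hydroxymethyltransferase was the more abundant of the pair. SHMT2 (chr12:57229573-57234935, plus strand) had a mean normalized count of 4202 and a level of 1230 per kb, the second highest of the 10, at or above 90.3% of ranked genes. SHMT1 (chr17:18327860-18363563, minus strand), the cytosolic enzyme, had a mean normalized count of 678 and a level of 246 per kb, at or above 57.6% of ranked genes. SHMT2 stood 5 times as high as SHMT1 per kb by longest transcript, and 5.94 to 9.47 times by the other lengths. SHMT1 was ninth of the 10 enzymes on every scale, the mean normalized count without division by length included.

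By longest transcript, the 3 MTHFD genes among the 10 enzymes lay between 813 and 954 per kb. MTHFD1 (chr14:64388031-64463457, plus strand), the cytosolic enzyme with 3 activities on folate-bound carbon, had a mean normalized count of 6501 and a level of 954 per kb. MTHFD1L (chr6:150865679-151101887, plus strand), the mitochondrial enzyme that releases formate, had a mean normalized count of 2826 and a level of 813 per kb. MTHFD2 (chr2:74186172-74217565, plus strand), the mitochondrial dehydrogenase and cyclohydrolase that is high in embryos and many tumours, had a mean normalized count of 5506 and a level of 846 per kb. These 3 genes were at or above 84.5% to 86.9% of ranked genes.

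Their spacing and order depended on the length taken. MTHFD1 stood at 1.17 times MTHFD1L by longest transcript, at 2.52 times by canonical transcript and at 2.34 times by coding length. By union of exons it stood at 0.648 times, since the exons of MTHFD1 together span 17357 bases against 3154 bases in its canonical transcript. MTHFD2 stood at 1.04 times MTHFD1L by longest transcript, 1.53 times by canonical transcript, 5.45 times by coding length and 0.833 times by union of exons. It was 4.49 times as high as MTHFD2L, its close relative in mitochondria, which stood at 188 per kb, near the median ranked gene, and that ratio was 4.92 to 9.11 by the other lengths.

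ALDH1L2 (chr12:105019784-105107643, minus strand), which makes NADPH in mitochondria while it removes the carbon unit, had a mean normalized count of 3844. By its long transcript of 8198 bases its level was 469 per kb, at or above 73.5% of ranked genes. Its cytosolic counterpart ALDH1L1, a liver and astrocyte enzyme, had a mean of 0.124, which is the value of 1 read in 1 library, so that no fold is given between them. The mitochondrial gene was thus the higher of the SHMT pair and of the ALDH1L pair. MTHFD1 stood above MTHFD1L by every length but the union of exons, so that their order was not settled by these data.

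ASNS (chr7:97851677-97872542, minus strand) was the lowest of the 10 enzymes. Its mean normalized count was 40.9, from 181 to 329 reads over the 6 libraries together, which gives a counting error of at most 7.43%. Its level was 17.1 per kb, at or above 13.1% of ranked genes. The next enzyme, SHMT1, stood at 14.3 times that level and PSAT1 at 310 times. ASNSD1, a gene with an asparagine synthetase-like domain, had a mean normalized count of 919 and a level of 381 per kb, 22.2 times that of ASNS. These ratios rest on the deposited count of ASNS, whose canonical exon bases are almost all shared with another gene, as described below. How reads in such exons were counted is not given in the sources used here, and the counting error does not cover it.

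The sequence of ASNS is not its own in the annotation. Of the exon bases of its canonical transcript, 99.5% also lie in exons of another gene on the same strand. GENCODE lists that gene without a symbol as the lncRNA gene ENSG00000284707. RefSeq places a gene of the name CZ1P-ASNS at chr7:97852117-97972358, which overlaps ASNS but does not cover its 3′ end. Shares were computed with GENCODE genes only, so none is given for CZ1P-ASNS. The stretch below is shown because it is the start of the ASNS coding sequence and stands in 2 of the 4 GENCODE transcripts of ENSG00000284707. It lies at chr7:97869097-97869156 (GRCh38, minus strand), it is written 5′ to 3′, and the capitals mark the start codon.
ASNS coding start: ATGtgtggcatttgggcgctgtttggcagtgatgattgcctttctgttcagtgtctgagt

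A read from such a stretch cannot be given to 1 gene by its sequence or by its strand. To measure how much of each enzyme is shared, its canonical transcript was read in windows of 50 bases, and each window was looked for in the transcripts of all other genes. For ASNS, 99.5% of the windows were in a gene that overlaps it, with windows of 50 and of 100 bases alike. None of the other 9 enzymes shared a window with an overlapping gene. With genes elsewhere, such as PSPHP1, MTHFD1P1 and PSAT1P3, PSPH shared 9.04% of its 50-base windows, MTHFD1 6.57%, ASNS 5.44%, PSAT1 4.68%, MTHFD2 3.17% and SHMT1 2.54%. ALDH1L2 and MTHFD1L shared 0.325% and 0.206%, and PHGDH and SHMT2 shared 0%. With windows of 100 bases these shares were 0% for all but MTHFD1, at 1.47%.

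**Figure D2:**
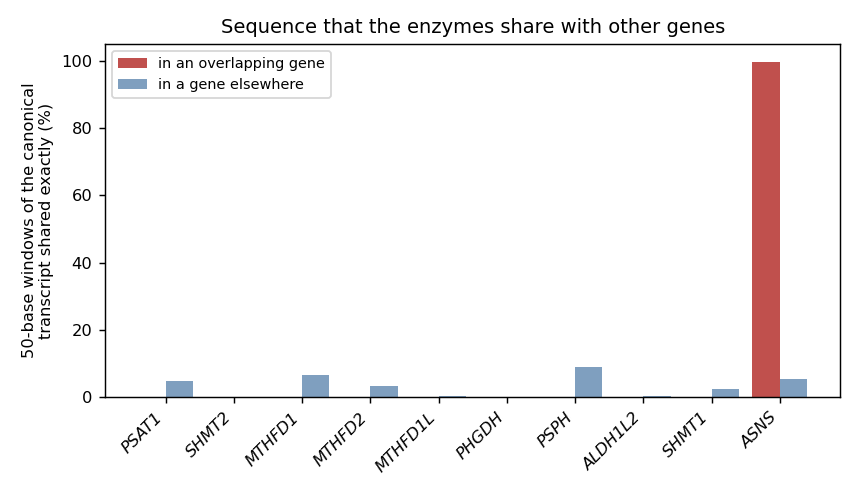
Percent of the 50-base windows of each enzyme's canonical transcript that occur exactly in a transcript of a gene that overlaps it (red) or of a gene elsewhere (blue), with the enzymes in order of level per kb. ASNS shares 99.5% with an overlapping gene, and the highest share with genes elsewhere is 9.04%, for PSPH.

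CZ1P-ASNS, the RefSeq gene that overlaps ASNS, had a row of its own with a mean normalized count of 7.92, from 36 to 63 reads in all. Among the rows for copies of the members, the pseudogene ASNSP1 had 399, from 1765 to 3218 reads. ASNS shared 1.84% of its 50-base windows with ASNSP1 and 0% of its 100-base windows. Other rows whose symbols mark copies of the 10 enzymes were not found.

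Over all protein-coding genes with a position, the 203 whose canonical transcript is at least 90% covered by exons of other genes on the same strand had a median mean normalized count of 95.2. The 14357 that are under 10% covered had a median of 472. Of the former, 96 (47.3%) were under 50, as ASNS was, and of the latter 4179 (29.1%). The counts of both sets overlapped widely, with quartiles of 2.61 and 983 for the former and 20.7 and 1637 for the latter. How reads in shared exons were counted is not given in the sources used here, and the part of the overlap in the low count of ASNS was not tested.

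**Figure D3:**
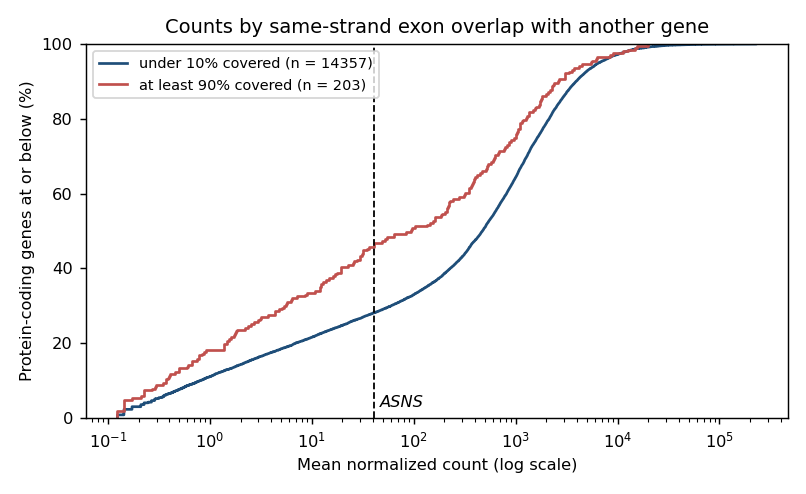
Cumulative percent of protein-coding genes by mean normalized count (log scale), for 203 genes at least 90% covered by same-strand exons of other genes (red) and 14357 genes under 10% covered (blue), with the count of ASNS, 40.9, as a dashed line. The red curve lies above the blue one over most of the range, with medians of 95.2 and 472.

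The genes around the 10 enzymes were counted by lists, of which each list's members were compared with the median ranked gene. List genes with a mean normalized count under 10 were not ranked, and they count here as under the median gene. Of a list of 10 genes that holds ATF4, the 4 kinases that act above it and 5 other genes of the stress response, 9 were above the median gene, with a median of 598 per kb. ATF4 was the highest at 5848 per kb, and EIF2AK3, the kinase of endoplasmic reticulum stress, the lowest at 81.3 per kb. The 5 genes of the list that are neither were DDIT3 at 2374, TRIB3 at 1033, ATF5 at 570, NUPR1 at 493 and CHAC1 at 242 per kb. The share of these genes above the median was like that of the enzymes themselves. Of the lists below, the methionine cycle had a median of 626 per kb, and asparagine, aspartate and glutamine had 353 per kb. Glycine cleavage and serine use had 167 per kb, and the folate one-carbon genes 145 per kb.

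Among the 16 folate one-carbon genes with a row, other than the 10 enzymes, 8 were above the median gene. Only 13 of the 16 reached the minimum of 10 and were ranked. GART, an enzyme of purine synthesis that uses formyl folate, was the highest at 1804 per kb, and TYMS, which makes thymidylate, was at 1304 per kb. SLC25A32, the mitochondrial folate carrier, was at 1296 per kb. ALDH1L1 was the lowest of the list, and FTCD, a liver enzyme, had a mean normalized count of 1.36.

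Of 15 genes for glycine cleavage and serine use, 14 were ranked and 7 were above the median gene. PTDSS1, which makes phosphatidylserine, was the highest at 955 per kb, and SDS, the liver serine dehydratase, the lowest with a mean normalized count of 0.794. SFXN1, the mitochondrial serine carrier, was at 522 per kb. The members of the glycine cleavage system were uneven, with DLD at 944, GLDC at 238, GCSH at 142 and AMT at 4.3 per kb, and DLD also serves other mitochondrial enzyme complexes. CBS and CTH, which carry serine into cysteine, were at 4.72 and 65.2 per kb.

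Of the 8 methionine cycle genes with a row, 6 were ranked and 5 were above the median gene. MAT2A, which makes S-adenosylmethionine, was the highest at 3969 per kb, and AHCY, which breaks down S-adenosylhomocysteine, was at 2322 per kb. MTR, which joins the folate and methionine cycles, was at 134 per kb, under the median gene. BHMT and GNMT, both liver enzymes, had mean normalized counts of 0.268 and 0.144, which come from 2 reads and 1 read in all 6 libraries.

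Of 12 genes with a row for asparagine, aspartate and glutamine, 10 were ranked and 8 were above the median gene. ASS1, which joins aspartate to citrulline, was the highest at 1486 per kb. The aspartate aminotransferases GOT2 and GOT1 were at 1285 and 778 per kb. GLS2, the lowest of the list, had a mean normalized count of 2.69. ASRGL1, which breaks asparagine down, was at 11.3 per kb, against 17.1 per kb for ASNS, which shares most of its exon bases with another gene.

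**Figure D4:**
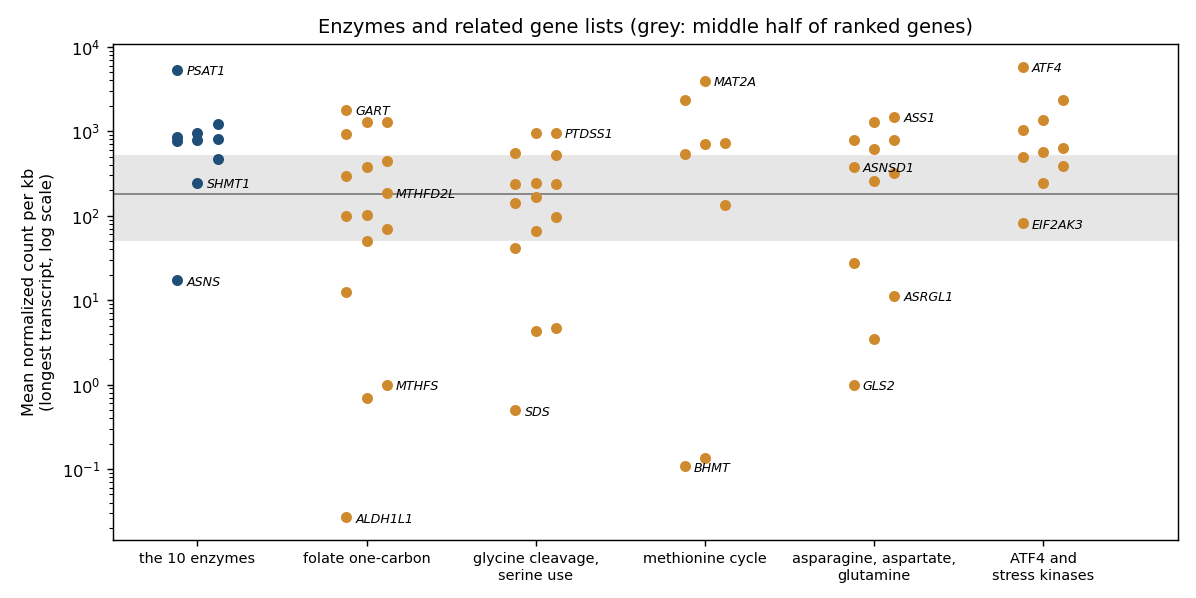
Mean normalized count per kb by longest transcript (log scale) of the 10 enzymes (blue) and of the genes of 5 related lists (orange), 1 point a gene, with the median (line) and the quartiles (grey band) of 13024 ranked genes. Of the enzymes 9 of 10 lie above the line, against 8 of 16 folate genes and 9 of 10 genes of the ATF4 list. Only 13 of the 16 folate genes were ranked, against all of the enzymes and of the ATF4 list.

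Promoter sequences from RefSeq (GRCh38.p14, 250 bases before to 50 bases after each start) were found for 7 of the 10 enzymes, all but PSPH, SHMT2 and ALDH1L2. They were searched on both strands for 6 short patterns, which were chosen after the levels were seen. TGATGNAAN, the C/EBP-ATF response element that ATF4 can bind, was in 2 of 7 (MTHFD1L and ASNS), against 4.45% of 27305 genes. Its forms TGATGNAAC and TTGCATCA, each found in 1 of 7, overlap with it. CACGTG, an E-box, was in 2 of 7 (MTHFD1 and MTHFD1L), against 8.77% of genes. TGACGTCA was in 0 of 7, against 2.25% of genes, and CCAAT in 6 of 7, against 39.7%. The matches to the response element and the E-box are shown in 30 bases each, 5′ to 3′ on the strand of the gene, and the capitals mark the match. They are shown as matches to patterns that under 10% of genes hold, and ASNS and MTHFD1 share neither pattern. They lie at chr7:97872458-97872487 for ASNS, at chr6:150866346-150866375 and chr6:150866320-150866349 for MTHFD1L, and at chr14:64388323-64388352 for MTHFD1.
ASNS response element: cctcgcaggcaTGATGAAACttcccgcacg
MTHFD1L response element: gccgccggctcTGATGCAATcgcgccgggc
MTHFD1L E-box: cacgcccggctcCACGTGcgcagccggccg
MTHFD1 E-box: tggccagtccctaagCACGTGggttgggtt

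The match to the response element began 68 bases before a RefSeq start of ASNS and 129 bases before a RefSeq start of MTHFD1L. These matches lie within the GENCODE spans of the genes given above, which begin upstream of the starts used. The 2 genes with the response element pattern stood at 17.1 and 813 per kb, the lowest and the fifth of the 10 levels. The level of ASNS rests on exons shared with another gene, and PSPH, SHMT2 and ALDH1L2 had no promoter to search. Whether a pattern goes with the level was not tested. PSAT1, the highest, had neither the response element nor the E-box letters in its window. A match describes the sequence and shows no binding.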

How the data were processed

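Poly(A) RNA of 3 vehicle and 3 DOX cultures was sequenced from stranded libraries. Per the study's methods and the labels, the authors aligned reads with STAR to GRCh38 and normalized counts with DESeq2. The gene counter is not given in the sources used here. An annotation release may be meant by the number that the study's methods append to GRCh38, but none is named as such. The deposited table holds 1 signal value per gene, the mean normalized count over all 6 libraries, which the authors computed with DESeq2. Its 5 other columns (fold change, standard error, statistic, p-value, adjusted p-value) hold the authors' own comparison and were not used. The planned count test of DOX against vehicle needs counts of single libraries and was not run.

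The lowest 6 values of the column, from 0.124 to 0.226, are those of 1 read in 1 library. All 3195 of 3195 values under 1 were whole-number sums of them within 1e-09. They gave size factors that differ by 1.82 times at most and bounds on the reads behind each gene. These cover counting error only, the libraries could not be tied to samples, and total depth per library is unknown. The mean normalized counts sum to 26551206.

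Of 19792 symbols, 17729 matched GENCODE 44 directly, 594 through a RefSeq synonym, and 1469 had no match. Overlap, shared windows and percentiles were computed with Python 3.11.15, numpy 2.4.6 and pandas 2.3.3, plots were drawn with matplotlib 3.10.9, and the percentile and window steps were tested on simulated data. The members and lists were chosen with earlier results of these data known. The genes named are the members, WDR5, counterparts and copies of members, CZ1P-ASNS, and the highest and lowest gene of each list. Other list genes and the overlap, window and promoter analyses were chosen after values were seen. Alternatives were other lengths, gene sets and minimums. Levels of some list genes are not reported here.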

Additional observations from a re-analysis of the deposited data

How the results depend on the processing

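The median level of the 10 enzymes, 799 per kb, was 1904 with coding length and 443 with the union of exons. These alternatives divide by other lengths and so set another scale. It moved by less than 1.5 times with the canonical transcript and without ASNS, both chosen after seeing the data. The number of enzymes above the median gene was 9 under all 5 alternatives run (all genes of the table, protein-coding genes, no division by length, a minimum of 50, the canonical transcript). SHMT1 was only just above it without division by length, at or above 50.1% of genes, and with a minimum of 50, at or above 51.5%. This count was not run with coding length or the union of exons. Single levels moved by over 1.5 times for 8 of 10 enzymes with coding length, 5 with the union of exons and 3 with the canonical transcript. PSAT1, SHMT1 and ASNS kept their places in the order on each scale. No paired analysis was possible because the table used here holds no values of single libraries. The other alternatives planned for DOX against vehicle, such as leaving out a culture, were not run for the same reason. Counting error is at most 1.83% for 9 enzymes and 7.43% for ASNS, and the spread between cultures is unknown.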
